A study of Mus musculus with 2 samples.

Results

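Complement is the cascade of blood and tissue proteins that tags cells and particles and recruits leukocytes. C1q, built of A, B and C chains, binds immune complexes and dying cells and opens the classical route. C3 is the component on which all routes converge, factor B and properdin (the Cfb and Cfp products) drive and hold together the alternative-route convertase, and the fragments C3a and C5a act through the receptors encoded by C3ar1 and C5ar1. Itgam encodes CD11b, the alpha chain of complement receptor 3, and Cd59a encodes a membrane protein that blocks the membrane attack complex. Macrophages are a known source of C1q in many tissues, tumours included.

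These 10 genes were chosen by name, as C1q, C3, alternative-route components, receptors and a membrane inhibitor, and all 10 are among the 22836 genes of the table. They were followed across the cell classes and treatment groups of a single-cell RNA-seq study of CD45+ cells (CD45, the product of Ptprc, marks leukocytes) from Colon26 tumours. Colon26 is a mouse colon carcinoma line, here grown under the skin of the right flank of wild-type BALB/c mice. The 14 mice fell into 4 groups, and all carried the tumour. The minP1 group (n = 4) received minP1, an immunostimulatory peptide of HMGN1, at 0.08 µg intraperitoneally on day 9. The PDL1 group (n = 3) received anti-PD-L1 antibody, clone 10F.9G2, at 200 µg intraperitoneally on days 4 and 8. The minP1_PDL1 group (n = 4) received both, and the Control group (n = 3) received neither agent as far as the labels say. Tumours were taken on day 10, 1 day after the peptide. Cells of each mouse carried their own hashtag antibody, and a mouse was the unit of every test. The labels speak of intestinal cells in the cell-type field and of Colon26 tumour in the tissue field.

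Between 466 and 724 cells per mouse were kept, 7732 in all, with 26007834 to 51230461 reads per mouse. Of 23 clusters, 2 with macrophage markers held 1761 cells, and other classes were T cells (1599 cells), NK cells (1362), monocytes (733), neutrophils (579), conventional dendritic cells (cDC, 4.05% of cells on average) and plasmacytoid dendritic cells (pDC, 166). A class of 545 cells with stromal or epithelial genes, called stromal here, had Ptprc reads in 59.6% of the cells of its large cluster, so reads of the CD45 gene were not found in every kept cell. The 10 complement genes were kept out of the genes used for clustering and out of the marker lists. The classes were nevertheless drawn from other genes of the same cells, which bears on every comparison between classes. Levels are reads of a gene scaled to a common library total of 1000000 reads (CPM) of the summed cells of a class in 1 mouse.

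The 3 C1q genes lie side by side on the minus strand of chromosome 4 (GRCm38, GENCODE M21). C1qb spans chr4:136880129-136886187, C1qc chr4:136889804-136893065 and C1qa chr4:136895917-136898803, with 3616 and 2851 bases between neighbours and 18675 bases in all. C3 (chr17:57203970-57228136) and Cfb (chr17:34856374-34862518) share a chromosome with each other but not with C1q. Cfb overlaps the annotated gene Gm20547 on the same strand, so its reads and those of that gene may not be separable. Sequence upstream of the start was taken from RefSeq (GRCm38.p6), which held 8 of the 10 genes, all but C1qa and Cfb, and was trimmed to the part outside the GENCODE gene. It is printed for C1qb and C1qc, which move together below, and for C3, which does not follow them, 5′ to 3′ on the gene's strand, with motif matches in capitals.
C1qb, chr4:136886201-136886450, minus strand: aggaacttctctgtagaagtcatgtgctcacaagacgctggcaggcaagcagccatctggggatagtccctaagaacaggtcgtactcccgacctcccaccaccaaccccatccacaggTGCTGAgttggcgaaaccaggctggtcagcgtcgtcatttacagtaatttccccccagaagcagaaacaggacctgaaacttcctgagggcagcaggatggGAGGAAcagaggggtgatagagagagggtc
C1qc, chr4:136893066-136893164, minus strand: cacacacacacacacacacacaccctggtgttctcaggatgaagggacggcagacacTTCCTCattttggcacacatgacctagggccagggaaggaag
C3, chr17:57228137-57228386, minus strand: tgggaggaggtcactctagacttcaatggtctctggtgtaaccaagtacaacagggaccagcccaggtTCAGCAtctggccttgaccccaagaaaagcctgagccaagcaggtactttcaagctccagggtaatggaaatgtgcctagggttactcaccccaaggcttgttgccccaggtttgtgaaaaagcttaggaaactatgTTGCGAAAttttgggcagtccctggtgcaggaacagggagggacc
The letters searched on both strands were GAGGAA (a core bound by PU.1, a factor of myeloid cells), TGCTGA (part of a Maf element) and TTNNGCAA (C/EBP half-sites). The C1qb stretch holds TGCTGA and GAGGAA, the C1qc stretch holds the reverse complement of GAGGAA, and the C3 stretch holds the reverse complement of TGCTGA and a match of the C/EBP letters on the other strand. No pair of these matches overlaps. GAGGAA is in 23.3% of 32851 RefSeq promoters, TGCTGA in 16.1% and TTNNGCAA in 9.56%, so each is common, and a match is a description of the letters only.

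C1q was the part of the set most concentrated in macrophages. C1qa in macrophages ranged over the 14 mice from 318 to 949 CPM with a median of 530, C1qb from 157 to 496 with a median of 293, and C1qc from 334 to 1056 with a median of 662. Among classes with at least 10 cells in 8 or more mice, the next for C1qa was pDC, with a mean of 180 CPM in 11 mice, and macrophages were above it in 11 of 11 mice. Below that came neutrophils (124 ± 84.8 CPM, SD, n = 14), cDC (86.0 ± 121) and monocytes (67.3 ± 62.4), whose order changed from mouse to mouse, since neutrophils exceeded cDC in 10 of 14 mice and cDC exceeded monocytes in 9 of 14. T cells (15.99 ± 11.4 CPM) and NK cells (25.9 ± 24.9 CPM) should lack these genes and give the background of reads from other cells. Macrophages made up 22.5% of the cells and 37.0% of the reads, and they held 87.0 ± 5.60% of C1qa reads, 88.8% of C1qb reads and 87.6% of C1qc reads (mean over mice). An unnamed cluster of 78 cells, led by the heat-shock genes Hspa1a and Hspa1b and too small for values by mouse, had 561 CPM of C1qa in its pooled reads, against 186 CPM in pooled pDC.

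**Figure D1:**
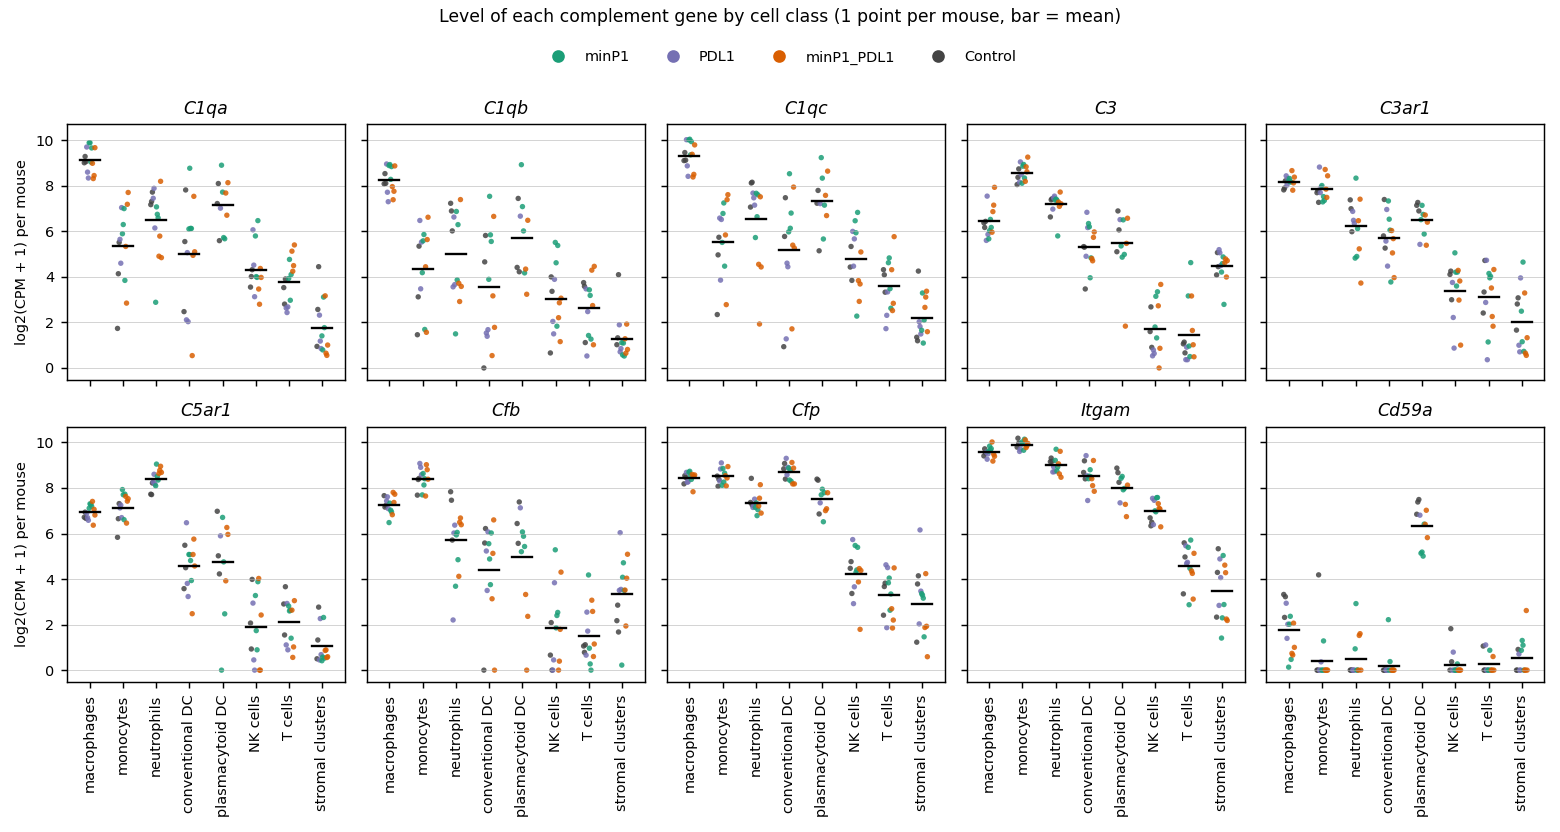
Level of each gene by cell class as log2(CPM + 1) on the vertical axis, 1 point per mouse coloured by treatment group, with the class mean as a bar. C1qa, C1qb and C1qc peak in macrophages, C3 and Cfb in monocytes, C5ar1 in neutrophils and Cd59a in pDC.

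Against monocytes of the same mice, macrophages were higher in all 3 C1q genes. The log2 difference was 3.41 (SE 0.56) for C1qa, 3.46 (SE 0.59) for C1qb and 3.47 (SE 0.51) for C1qc, with adjusted p of 4.0e-06, 9.7e-06 and 4.4e-07 in edgeR's quasi-likelihood test with the mouse as a block. Against cDC the differences were 3.45, 3.96 and 3.59, and against macrophages the stromal class was lower by 7.51, 7.66 and 7.45 on the log2 scale for C1qa, C1qb and C1qc. Neutrophils set against monocytes gave 1.06, 0.72 and 1.08, none past the threshold of an adjusted p of 0.05. The C1q reads of neutrophils and monocytes sat in few cells. The most C1qa-rich 10% of cells held 52.7% of the class's C1qa reads in macrophages, 99.5% in neutrophils and 98.5% in monocytes. It was also 98.0% in cDC and 100% in T cells and in NK cells. Any C1qa read was found in only 12.1% of neutrophils and 16.6% of monocytes, so a share near 100% follows largely from how few cells had a read. Cells with a high doublet score (more than 0.5 of the neighbours are simulated doublets) made up 60.5% of macrophages, 36.8% of neutrophils, 16.2% of monocytes and 50% of pDC. As many doublets were simulated as there were cells, so 0.5 is the share in an even mix. The score was over 0.5 in 100% of B cells too, and such a score does not by itself mark a doublet. Cells over 0.5 were then left out, in mice with at least 10 cells of a class remaining. The mean C1qa level was 971 CPM in macrophages, 23.1 CPM in neutrophils and 61.7 CPM in monocytes, and pDC were not recomputed. Neutrophils were then lower than monocytes in C1qa (log2 -1.61, adjusted p = 0.045) and C1qb (log2 -2.82, adjusted p = 4.2e-04) by the same edgeR test. In that setting the median log2 difference of all genes was -1.42, near the C1qa value. Of 11186 genes, 5159 were called lower in neutrophils and 738 higher.

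The 3 subunits kept a steady proportion. Of the C1q reads of macrophages, C1qa made up 37.4 ± 1.48%, C1qb 20.3 ± 1.38% and C1qc 42.3 ± 1.98% (SD, n = 14 mice). Divided by exon length, the shares were 46.9 ± 1.51% for C1qa, 24.4 ± 1.51% for C1qb and 28.7 ± 1.67% for C1qc. C1qc thus led in reads and C1qa after scaling, and whether this scaling suits the library was not tested. The length-scaled C1qa share ran from 44.6% to 49.3% over mice whose C1qa level ran from 318 to 949 CPM. The same scaled shares were taken in monocytes, cDC, neutrophils, T cells and NK cells with at least 100 C1q reads in a mouse. There mean C1qa shares ran from 41.8% to 52.0%, C1qb shares from 18.9% to 26.6% and C1qc shares from 28.1% to 39.0%, with larger spreads between mice.

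Within macrophages C1q was uneven from cell to cell. Of the 1761 macrophages, 42.3% had reads of all 3 subunits, 9.54% of any 2, 16.5% of 1 and 31.6% of none. Depth differs between cells, and in cells thinned to 10000 reads (170 shallower macrophages left out) all 3 were found in 37.4 ± 13.5% of macrophages per mouse (SD, n = 14, from 19.2% to 57.6%) and none in 43.8 ± 11.4%. On the same thinned scale all 3 were found in 3.45% of monocytes, 4.58% of neutrophils, 0.134% of T cells and 0.498% of NK cells. Any read of C1qa was found in 48.1% of thinned macrophages and in 4.52% of thinned T cells. Unthinned shares were 54.1% of macrophages and 7.38% of T cells, at median depths of 98991 and 20233 reads. One of the macrophage clusters (280 cells, median 8535.5 reads) had 448 CPM of C1qa in its pooled reads, against 645 CPM in the main macrophage cluster of 1481 cells.

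C3 and Cfb had another pattern, with their highest level in monocytes. C3 ranged over the 14 mice from 47.6 to 243 CPM in macrophages (median 76.5), from 54.7 to 211 CPM in neutrophils (median 165) and from 265 to 612 CPM in monocytes (median 376). Monocytes were above neutrophils in 14 of 14 mice, and neutrophils above macrophages in 11 of 14. Macrophages were lower than monocytes in C3 by 2.12 on the log2 scale (SE 0.22, edgeR adjusted p = 2.1e-11), and neutrophils were lower than monocytes by 1.36 (SE 0.21, edgeR adjusted p = 1.5e-06). Macrophages were above cDC by 1.04 (SE 0.22, edgeR adjusted p = 4.4e-04), a call lost without cells of high doublet score (0.90, adjusted p = 0.16). By number of reads, macrophages held 40.4 ± 7.83% of all C3 reads and monocytes 37.6 ± 7.55%. At 10000 reads per cell C3 was found in 27.1% of macrophages, 25.1% of neutrophils and 58.6% of monocytes, and in 1.23% of T cells and 1.23% of NK cells.

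Cfb ranged from 88.3 to 223 CPM in macrophages (median 155) and from 199 to 539 CPM in monocytes (median 340). Monocytes were above macrophages in 14 of 14 mice. The log2 difference of macrophages from monocytes was -1.20 (SE 0.42, edgeR adjusted p = 0.037). This call was lost in DESeq2 (adjusted p = 0.0502), without the filter on low counts (0.066), without cells of high doublet score (0.27), and on leaving out any 1 of 9 mice, namely Control 2, Control 3, minP1 2, minP1 3, minP1 4, PDL1 1, PDL1 3, minP1_PDL1 2 and minP1_PDL1 3 (adjusted p from 0.0501 to 0.081). The log2 difference stayed between -1.10 and -1.22 in these 12 recalculations. Neutrophils were lower than monocytes in Cfb by 2.37 (SE 0.46, edgeR adjusted p = 6.1e-05), and macrophages were above cDC by 2.04 (SE 0.45, edgeR adjusted p = 8.3e-04). The other alternative-route gene, Cfp, was spread more evenly. It averaged 352 ± 54.9 CPM in macrophages, 372 ± 88.2 CPM in monocytes and 426 ± 107 CPM in cDC (SD, n = 14), with cDC above monocytes in 9 of 14 mice and monocytes above macrophages in 7 of 14. Macrophages differed from monocytes by -0.10 (SE 0.28) and from cDC by -0.28 (SE 0.28) on the log2 scale, neither past the threshold. Neutrophils, at 172 CPM, were lower than monocytes by 1.14 (SE 0.29, edgeR adjusted p = 0.0019).

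**Figure D2:**
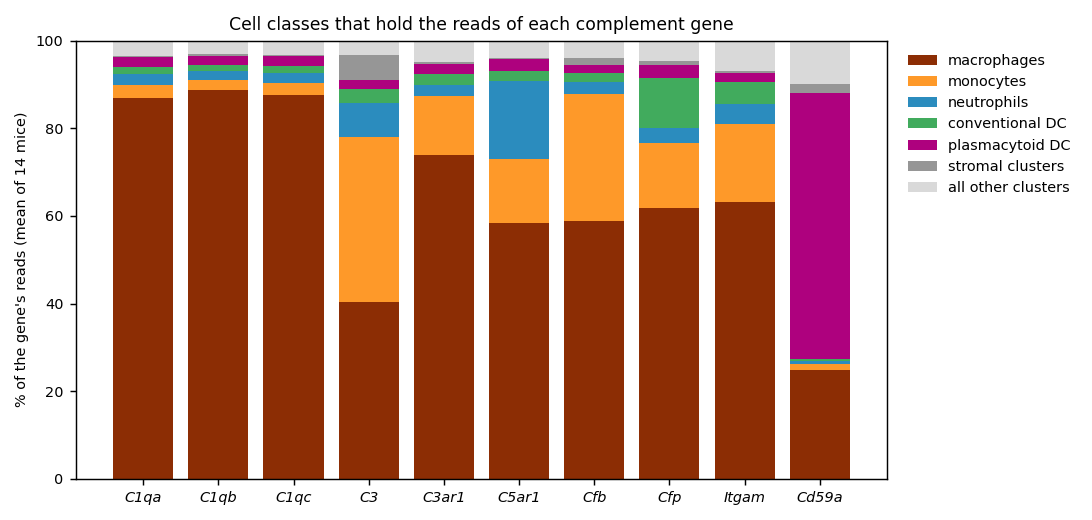
Share of each gene's reads held by each cell class, as stacked bars of the mean over 14 mice, in percent. Macrophages hold 87.0% of C1qa reads but 40.4% of C3 reads, and pDC hold 60.8% of Cd59a reads.

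The anaphylatoxin receptors differed from each other in where they peaked. C3ar1 averaged 294 ± 49.7 CPM in macrophages and 244 ± 95.5 CPM in monocytes (SD, n = 14), with macrophages above monocytes in 10 of 14 mice and a log2 difference of 0.23 (SE 0.36, edgeR adjusted p = 0.72). C3ar1 was lower in neutrophils than in monocytes by 1.41 (SE 0.39, edgeR adjusted p = 0.0047), and higher in macrophages than in cDC by 2.29 (SE 0.39, edgeR adjusted p = 1.4e-05). C5ar1 had its highest level in neutrophils, from 208 to 528 CPM over the mice (median 344), against 81.4 to 169 CPM in macrophages (median 120) and 56.0 to 243 CPM in monocytes (median 154). Neutrophils were above monocytes in 14 of 14 mice, by 1.28 on the log2 scale (SE 0.28, edgeR adjusted p = 3.3e-04). By number of reads, macrophages held 58.4% of C5ar1 reads, neutrophils 17.8% and monocytes 14.7%.

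Itgam, like Cfp, was found in every myeloid class. It averaged 765 ± 121 CPM in macrophages (SD, n = 14), 535 CPM in neutrophils, 393 CPM in cDC and 963 ± 120 CPM in monocytes, and monocytes were above macrophages in 13 of 14 mice. The log2 difference of macrophages from monocytes, -0.38 (SE 0.24, edgeR adjusted p = 0.28), was not past the threshold, while neutrophils were lower than monocytes by 0.86 (SE 0.24, edgeR adjusted p = 0.0052) and macrophages were higher than cDC by 0.96 (SE 0.24, edgeR adjusted p = 0.0031). At 10000 reads per cell it was found in 88.2% of macrophages, 59.8% of neutrophils, 87.6% of monocytes, 24.5% of NK cells and 7.53% of T cells. Itgb2, the beta chain that pairs with CD11b in complement receptor 3, averaged 21.5 CPM in the stromal class, 487 CPM in macrophages and 611 CPM in monocytes.

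Of the 10 genes, 9 passed the filter on low counts in the comparison of classes, and Cd59a did not. Among the 9, macrophages were higher than monocytes in 3 and lower in 2, where 11.6% of 12179 genes were called higher and 6.72% lower (18.4% in either direction). Macrophages were higher than cDC in 8 and lower in 0, against 8.13% and 4.76% of all genes (12.9% either way). Neutrophils were higher than monocytes in 1 and lower in 5, against 10.9% and 13.2% (24.1% either way). The stromal class was lower than macrophages in 9 and higher in 0, against 26.8% and 17.4% (44.3% either way). The median log2 difference of all genes was 0.19, 0.19, -0.07 and -0.05 in these 4 comparisons.

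Cd59a had its highest level in pDC. In the 11 mice with at least 10 pDC it averaged 92.97 ± 51.9 CPM in pDC, against 3.27 CPM in macrophages (SD 2.93, n = 14), and pDC were above macrophages in 11 of 11 mice. It was at 0 in T cells of 10 of 14 mice, in cDC of 12 and in monocytes of 11. At 10000 reads per cell Cd59a was found in 31.5% of pDC, 1.82% of macrophages and 0.205% of T cells. The pDC, 2.15% of all cells, held 60.8 ± 22.8% of Cd59a reads, macrophages held 24.9 ± 17.1%, and an unnamed cluster of 35 cells led by Ctsk, Mmp9 and Acp5 held 8.59%. That cluster, too small for values by mouse, had 44.1 CPM of Cd59a in its pooled reads, with a read in 37.1% of its cells. Pooled pDC had 90.3 CPM, with a read in 47.0% of cells. The paralog of Cd59a, Cd59b, is a near relative in the mouse, and reads shared between them could be placed on either gene.

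The genes most like each member over the 23 clusters were taken by the Pearson correlation of log2(CPM + 1) of the pooled clusters, which share mice, library and depth, and are given as a description. C1qa was closest to Ccl12 (r = 0.90), Ch25h (0.88) and Lyz2 (0.85). C3 was closest to Cd14 (0.90), Stom (0.87) and Arhgef10l (0.87), and Cfb to Zeb2 (0.93), Ccl9 (0.92) and Pla2g7 (0.91). Cfp was closest to Csf1r (0.94), Clec12a (0.94) and Sirpa (0.93), and C5ar1 to Clec4d (0.96), Fcgr4 (0.96) and Clec5a (0.94).

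For treatment, 6 comparisons were fitted in all CD45+ cells and in 5 classes, namely each treated group against Control, the combination against each single agent, and the interaction of the agents. Of 336 values of the 10 genes over these 36 comparisons, 0 passed an adjusted p of 0.05 in edgeR (all genes, 0%), and 0 of the 348 values in DESeq2. The lowest adjusted p of a member was 0.41 in edgeR and 0.11 in DESeq2, where it was C5ar1 in neutrophils of minP1_PDL1 against Control mice. At an unadjusted p under 0.05 were 22 of the 336 values in edgeR (6.55%, against 5.36% of the values of all genes) and 25 of the 348 in DESeq2 (7.18%, against 4.93% of all genes). Over all genes edgeR called 0 in every comparison, with 274 to 1915 genes at an unadjusted p under 0.05, while DESeq2 called 1052 over the 36 comparisons together. The changes given below are therefore values and not calls.

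**Figure D3:**
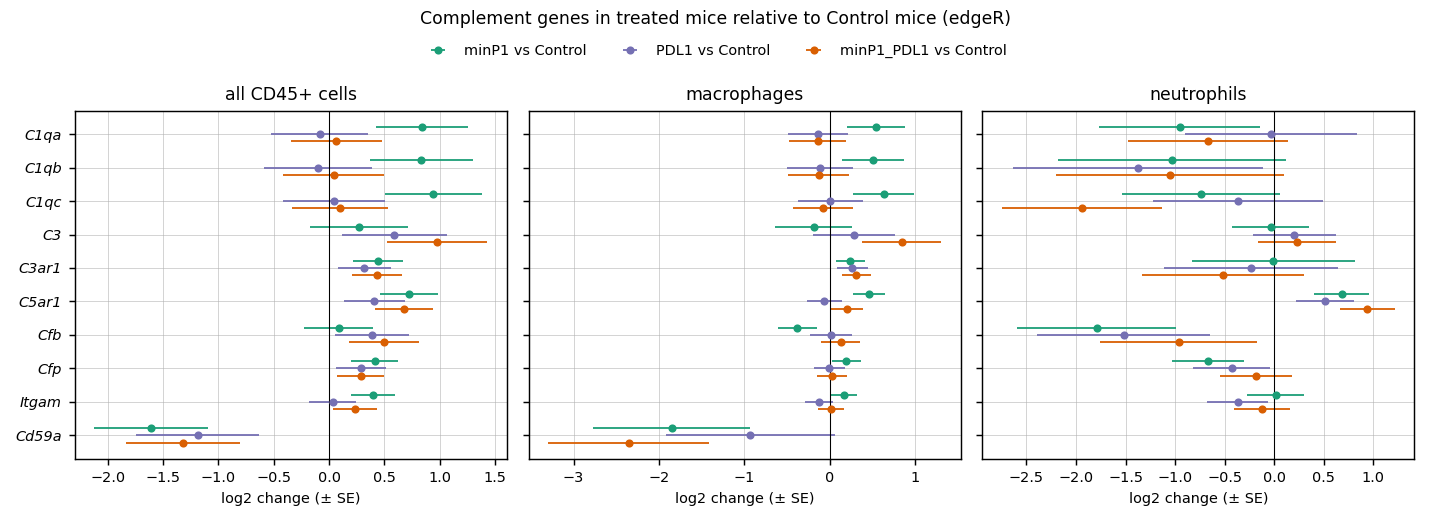
Log2 change of each gene, with its SE, in minP1, PDL1 and minP1_PDL1 mice relative to Control mice, in all CD45+ cells, macrophages and neutrophils (edgeR). No point is past an adjusted p of 0.05, and Cd59a is the only gene below 0 in all 3 comparisons of all CD45+ cells with no SE bar that reaches 0.

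C1q in macrophages was highest on average in minP1 mice. C1qa there was 949, 948, 528 and 809 CPM in minP1 mice, 833, 387 and 324 CPM in PDL1 mice, 507, 318, 349 and 816 CPM in minP1_PDL1 mice and 515, 624 and 533 CPM in Control mice. Of the minP1 mice, 3 were above every Control mouse and 1 lay within the Control range, and PDL1 and minP1_PDL1 mice fell on both sides of it. The log2 change in minP1 relative to Control mice was 0.54 (SE 0.34) for C1qa, 0.51 (SE 0.36) for C1qb and 0.63 (SE 0.36) for C1qc. The combination relative to minP1 alone gave -0.68 (SE 0.31) for C1qa and -0.71 (SE 0.33) for C1qc, with an unadjusted p of 0.042 and 0.048 and an adjusted p of 0.71 and 0.72 (edgeR), where 6.88% of genes were under an unadjusted p of 0.05. The interaction for C1qa was -0.55 (SE 0.47). The summed CPM of 16 macrophage markers in macrophages was 8633 ± 1023 in minP1, 6729 ± 910 in PDL1, 9245 ± 4007 in minP1_PDL1 and 6830 ± 772 in Control mice, and its part in the C1q values was not tested. In the stromal class this sum was 8111 ± 1495, 10527 ± 2299, 10213 ± 1759 and 8439 ± 2013 CPM in the same order. The sum is therefore not particular to macrophages.

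The share of macrophages with all 3 C1q subunits at 10000 reads followed the same order, at 49.7 ± 10.97% in minP1 mice (n = 4), 32.2 ± 18.0% in PDL1 mice (n = 3), 31.2 ± 12.8% in minP1_PDL1 mice (n = 4) and 34.5 ± 3.23% in Control mice (n = 3). The two-sided exact permutation p against Control was 0.17, 1 and 0.69, and 0.4, 1 and 0.78 after adjustment over 8 single tests chosen after values were seen. In all CD45+ cells C1qa averaged 380 ± 127 CPM in minP1, 203 ± 87.3 in PDL1, 222 ± 121 in minP1_PDL1 and 214 ± 70.4 in Control mice, a log2 change of 0.84 (SE 0.42) for minP1 against Control. That sum mixes the level per cell with the cell make-up, which it cannot separate. Macrophages were 25.2% of cells in minP1 mice, 21.5% in PDL1, 21.2% in minP1_PDL1 and 21.9% in Control mice, and without the stromal clusters the C1qa change was 0.63 (SE 0.42).

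**Figure D4:**
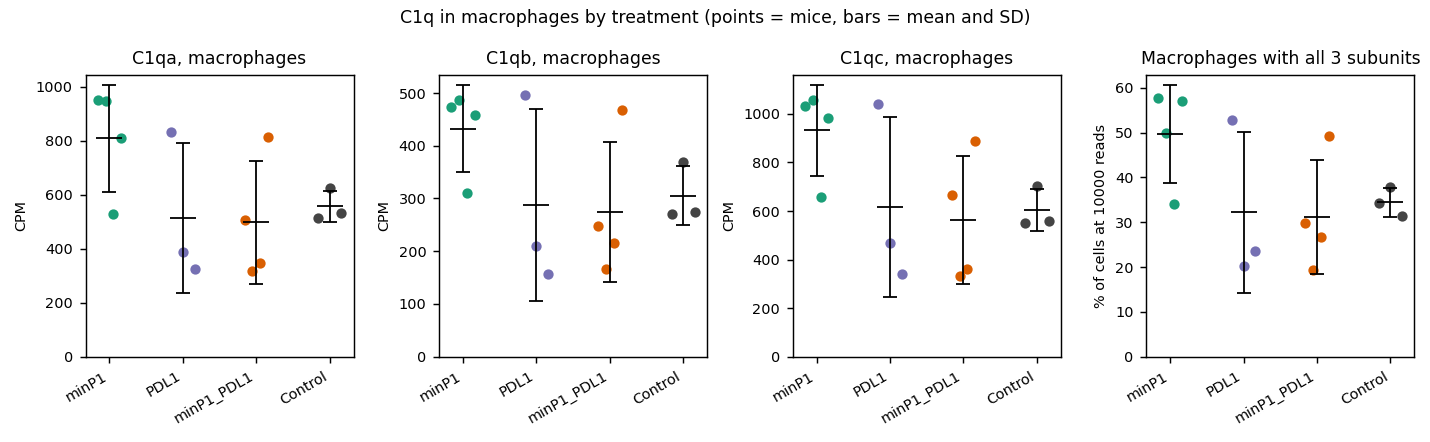
CPM of C1qa, C1qb and C1qc in macrophages, and the percentage of macrophages with reads of all 3 at 10000 reads per cell, by treatment group, with mice as points and mean and SD as bars. The minP1 means are the highest in each panel, and 1 minP1 mouse lies within the Control range in each.

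C3 and Cfb in macrophages ran the other way between the combination and minP1 alone. C3 was 61.3, 116, 141 and 243 CPM in minP1_PDL1 mice, against 49.9, 64.4, 91.1 and 71.0 CPM in minP1 mice. PDL1 mice had 47.6, 186 and 57.3 CPM and Control mice 82.0, 71.0 and 85.7 CPM. Of the minP1_PDL1 mice, 3 were above every minP1 mouse and 1 lay within their range. For minP1_PDL1 relative to minP1 the log2 change was 1.03 (SE 0.42, unadjusted p = 0.027, edgeR adjusted p = 0.65) in C3 and 0.51 (SE 0.21, unadjusted p = 0.032, edgeR adjusted p = 0.66) in Cfb. In monocytes, where C3 is highest, its values were 292, 455, 391 and 612 CPM in minP1_PDL1 mice, 276, 464, 489 and 324 CPM in minP1 mice, 285, 529 and 360 CPM in PDL1 mice and 265, 330 and 427 CPM in Control mice, and every treated group overlapped the Control mice.

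C5ar1 in neutrophils had the smallest unadjusted p of the set. It was 273, 528, 363 and 325 CPM in minP1 mice, 307.4, 388 and 288 CPM in PDL1 mice, 397, 437, 494 and 410 CPM in minP1_PDL1 mice and 211, 208 and 297 CPM in Control mice. Every minP1_PDL1 mouse was above every Control mouse, and the other groups overlapped Control. The share of all genes without overlap between these groups was not counted. The log2 change relative to Control was 0.94 (SE 0.28, unadjusted p = 0.0034, edgeR adjusted p = 0.59) for minP1_PDL1 and 0.68 (SE 0.28, unadjusted p = 0.025, edgeR adjusted p = 0.74) for minP1, where 6.82% and 6.42% of genes were under an unadjusted p of 0.05. Control mice had 13, 22 and 25 neutrophils and minP1_PDL1 mice 69, 38, 50 and 53. Without cells of high doublet score the change for minP1_PDL1 was 0.10 (SE 0.61). That fit took only mice with at least 10 neutrophils left, so it may rest on fewer mice. The summed macrophage markers in neutrophils were 1876 ± 776 CPM in minP1_PDL1 mice and 2711 ± 869 CPM in Control mice, and their part was not tested. This sum is not particular to macrophages, as the stromal values above show.

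In macrophages C5ar1 was 137, 157, 154 and 146 CPM in minP1 mice, against 104, 122 and 100 CPM in Control mice. These groups did not overlap, with a log2 change of 0.46 (SE 0.19, unadjusted p = 0.028, edgeR adjusted p = 1), where 4.05% of genes were under an unadjusted p of 0.05. The share of all genes without overlap was not counted here either. In all CD45+ cells the C5ar1 change relative to Control was 0.72 (SE 0.26) for minP1, 0.41 (SE 0.28) for PDL1 and 0.68 (SE 0.26) for minP1_PDL1. Cell make-up moved with these groups. Neutrophils were 6.09% of cells in minP1, 10.5% in PDL1, 9.88% in minP1_PDL1 and 3.69% in Control mice, and the summed stromal markers were 329 ± 123, 446 ± 289, 358 ± 163 and 804 ± 96.8 CPM in the same order. Without the stromal clusters the C5ar1 changes were 0.50 (SE 0.23), 0.27 (SE 0.24) and 0.52 (SE 0.23).

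Cd59a was lower in every treated mouse than in any Control mouse when all CD45+ cells were summed. It was 1.87, 4.67, 2.89 and 1.88 CPM in minP1 mice, 7.47, 2.50 and 1.60 CPM in PDL1 mice, 1.91, 3.49, 6.07 and 2.43 CPM in minP1_PDL1 mice, and 8.69, 8.16 and 9.37 CPM in Control mice. The counts behind them were few, from 54 to 418 reads per mouse, in 6 to 24 cells. The log2 change was -1.61 (SE 0.51, unadjusted p = 0.0075, edgeR adjusted p = 0.70) for minP1, -1.19 (SE 0.56, unadjusted p = 0.051, edgeR adjusted p = 0.76) for PDL1 and -1.32 (SE 0.51, unadjusted p = 0.022, edgeR adjusted p = 0.42) for minP1_PDL1, and these 3 values share the Control mice. Under an unadjusted p of 0.05 were 6.94%, 6.58% and 10.4% of genes in the 3 comparisons. The share of all genes that separate every treated mouse from every Control mouse was not counted. Without the stromal clusters the changes were -1.90 (SE 0.51), -1.25 (SE 0.55) and -1.58 (SE 0.50).

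Within pDC, Cd59a was 34.1, 35.4, 31.2 and 84.2 CPM in minP1 mice, 111 CPM in the 1 PDL1 mouse with at least 10 pDC, 83.6, 129 and 55.5 CPM in 3 minP1_PDL1 mice, and 114, 166 and 179 CPM in Control mice. The minP1 mice lay below all Control mice, and the minP1_PDL1 mice overlapped the Control mice. The share of all genes without overlap between these groups was not counted in pDC. The mean of minP1 mice was 46.2 ± 25.4 CPM and that of Control mice 153 ± 34.4 CPM (SD, n = 4 and 3), with a two-sided exact permutation p of 0.057, the smallest this design allows, and 0.4 after adjustment over the 8 tests. For minP1_PDL1 against Control the exact permutation p was 0.2, where 0.1 is the smallest possible. The pDC share of cells was 2.17 ± 0.49% in minP1, 1.93 ± 0.14% in PDL1, 2.08 ± 0.70% in minP1_PDL1 and 2.45 ± 0.45% in Control mice, and the exact permutation p against Control were 0.46, 0.2 and 0.4. Only 6 to 16 pDC per mouse stand behind these values, and 50% of pDC had a high doublet score.

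**Figure D5:**
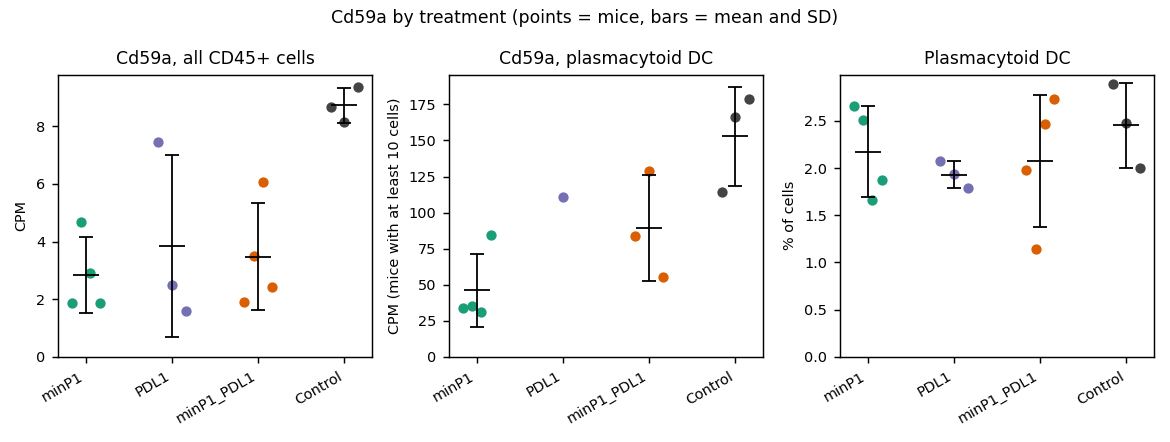
Cd59a CPM in all CD45+ cells and in pDC, and the pDC share of cells in percent, by treatment group, with mice as points and mean and SD as bars (no bar for the 1 PDL1 mouse in the middle panel). The 3 Control mice lie between 8.16 and 9.37 CPM in all CD45+ cells, above the 11 treated mice. The share of all genes with such a separation was not counted.

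Of 49 other complement genes listed, 37 are in the table, and their 750 treatment values held 0 calls and 51 at an unadjusted p under 0.05 (edgeR), which is 6.8% against 5.36% of all genes. The 12 of highest mean level were followed by class. Genes of the proteases that pair with C1q were higher in the stromal class than in macrophages. C1s1, the gene of the C1s protease, averaged 101 ± 48.1 CPM in the stromal class and 1.46 ± 1.73 CPM in macrophages (SD, n = 14), a log2 difference of 6.25 (SE 0.84, edgeR adjusted p = 1.5e-08). C1ra, for the C1r protease, averaged 40.5 CPM in the stromal class and 10.3 CPM in macrophages, a difference of 1.99 (SE 0.51, edgeR adjusted p = 9.6e-04). Clu, for the fluid-phase inhibitor clusterin, averaged 63.9 CPM in the stromal class and 0.11 CPM in macrophages, a difference of 9.72 (SE 0.89, edgeR adjusted p = 1.8e-14).

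Among myeloid cells, C4b, a classical-route component, averaged 30.4 CPM in macrophages and 2.05 CPM in cDC, a log2 difference of 4.57 (SE 0.85, edgeR adjusted p = 7.3e-05). Itgax, for the alpha chain of complement receptor 4, was lower in macrophages than in cDC by 1.35 (SE 0.34, edgeR adjusted p = 0.0040). Cd93 and Colec12, a receptor gene once linked to C1q binding and a scavenger receptor collectin gene, were higher in macrophages than in cDC by 2.51 (SE 0.50) and 2.81 (SE 0.43). Calr, C1qbp and Cr1l were measured in all 5 classes, with C1qbp higher in the stromal class than in macrophages by 1.21 (SE 0.26, edgeR adjusted p = 9.3e-05). Of the 22 listed genes tested between classes, macrophages were higher than monocytes in 2 and lower in 3, where 11.6% and 6.72% of all genes were, and higher than cDC in 8 and lower in 2, where 8.13% and 4.76% were. Neutrophils were higher than monocytes in 1 and lower in 11, where 10.9% and 13.2% of all genes were. The stromal class was higher than macrophages in 8 and lower in 9, where 17.4% and 26.8% were. The median log2 difference of the 22 was 0.04, 1.10, -1.53 and -0.21 in these 4 comparisons, against the medians of all genes given above.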

How the data were processed

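Single-cell RNA-seq was done on CD45+ tumour cells of 14 mice (BD Rhapsody, per the labels). The submitters' processing notes name cutadapt 2.10, Bowtie2 2.3.4.1, Seurat 2.3.4 and mm10. Values in the deposited table are whole-number counts of reads per gene and barcode. Its nonzero values have a median of 10 and 18.0% equal 1, which is the pattern of reads not collapsed by molecular identifier, so counting intervals would be too narrow and none is given. The table names 147 barcodes as doublet (141) or without hashtag (6), which were not used. Of 8115 barcodes, 383 with over 25% mitochondrial reads were removed, and 0 barcodes were shared by mice. The run of each mouse is not given in the sources used here, so a run effect and treatment cannot be told apart.

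Cells were clustered with scanpy 1.11.5 (2000 variable genes without the 10 members, 30 components, 20 neighbours, Leiden resolution 1.0). A cluster took a name with at least 3 markers among its top 50 genes. Doublet scores used as many simulated doublets as cells, and 72.9% of the simulated doublets and 26.4% of cells were over 0.5. Scored cells were kept in the main results. Counts were summed per mouse and class of at least 10 cells and tested with edgeR 4.0.16 in R 4.3.3 (TMM, filterByExpr, quasi-likelihood, two-sided, Benjamini-Hochberg over all genes tested), with all 4 groups in 1 fit for treatment and the mouse as a block between classes. The steps were tested on simulated data. Single values were compared by two-sided exact permutation over mice.

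The members and lists were chosen with earlier results of these data known. All 10 members are named. Of the other complement genes, any called in a treatment comparison and the 12 of highest mean CPM over 5 classes are named (1 of them is not reported here), and for likeness the 3 genes of highest correlation. Alternatives were DESeq2 1.42.0, RLE scaling, testing without the low-count filter, keeping cells of high mitochondrial share, resolution 0.5, members allowed in clustering, at least 20 cells, no high doublet scores, no stromal clusters, only the groups compared, a replicate block, each mouse left out, per-cell CPM and thinning to 10000 reads. Leaving out the low-read macrophage cluster was added after seeing the data.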

Additional observations from a re-analysis of the deposited data

Results flagged for a closer look

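Of 50 groups of 4 mice looked at, 3 held a mouse far from the other 3, where chance alone gives about 1 in 20. C1qb in macrophages was 310 CPM in minP1 replicate 3, against 458 to 488 CPM in the other minP1 mice. Cfp in macrophages was 227 CPM in minP1_PDL1 replicate 2, against 364 to 385 CPM in the others of that group. Cd59a in macrophages was 3.17 CPM in minP1_PDL1 replicate 3, against 0.584 to 1.00 CPM in the others.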

How the results depend on the processing

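The number of members called in a treatment comparison was 0 in all 858 recalculations under an alternative. Of 7955 treatment log2 values under alternatives, 576 had the other sign and 0 passed the threshold. With the replicate number as a block, 0 members and 0 genes were called. Same-numbered mice did not deviate together (correlations from -0.07 to 0.19 in all CD45+ cells), so the block was not read as a pairing. Without cells of high doublet score, neutrophils against monocytes gave log2 -1.61 for C1qa and -2.82 for C1qb, against 1.06 and 0.72 with them. There the median of all genes moved to -1.42 from -0.07 and 5897 genes were called, against 2937, and the cause was not tested. Genes called between macrophages and monocytes numbered 1100 without high doublet scores, against 2235, and between macrophages and cDC 2374 in DESeq2, against 1570. Without the cell filter, neutrophils were above monocytes in C1qa (1.37), C1qb (1.54) and C1qc (1.51), and without minP1_PDL1 replicate 4 in C1qc (1.39), all past the threshold. Of 644 called values between classes recomputed under an alternative, 631 stayed called with the same sign, 13 were lost (12 of Cfb, 1 of C3, given above) and 0 turned. The share of called genes that were higher in the stromal class than in macrophages was 39.4%, and 53.0% under RLE and 52.8% in DESeq2. For neutrophils against monocytes it was 45.3%, and 52.8% under RLE and 55.7% in DESeq2. Of 260 class levels recomputed, 16 moved by over 1 SD, 13 of them without high doublet scores. Few pDC and neutrophils per mouse limit what could be detected in those classes.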
